A study of Rattus norvegicus with 3 samples.

Results

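The collagen family was read on a rat gene expression array in kidney RNA of hypertensive rats. Members were the genes whose symbol in the array annotation has the form Col, a number, the letter a and a number, such as Col1a1. This gave 38 genes with 53 probes, of 18080 genes with a symbol and 30367 probes on the array. By the known structure of the chains, 11 members were fibrillar collagens, 5 were chains of the basement membrane collagen type IV, and 22 were other collagens. Each gene was represented by its brightest probe above background, and every member probe was printed on 1 spot. A probe counted as above background where its signal-to-noise ratio was 3 or more. On all 3 arrays 23 members met this limit, 2 met it on 2 arrays, 1 met it on 1 array and 12 met it on none.

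The animals were male spontaneously hypertensive rats (SHRs) on a Wistar background, 8 to 10 weeks old and 280 to 330 g in weight. Every group was hypertensive by strain, and no normotensive strain was part of the comparison. Control rats received about 3 mL of water by mouth for 4 weeks. The low-dose group received 10 mg/kg/day and the high-dose group 20 mg/kg/day of HBMP, the labels' name for a hydrolysate of blue mussel protein, in the same volume and for the same time. A group had 10 rats, of which 4 gave equal amounts of kidney RNA to a pool, and the pool was hybridised to 1 array with a single dye. The data therefore hold 3 arrays, no group has a replicate, and no test between groups was possible. The 3 arrays were positions of a single slide, each with a group of its own, so slide position and group cannot be told apart. A mouse design is named in the header of the high-dose file, although its probes and their annotation equal those of the control file.

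Values are fluorescence intensities above background, scaled to a common 75th percentile (scaled intensity), and differences are given on the log2 scale. With the probe above background on each array of a pair, a difference of 2-fold or more (1 on the log2 scale) was counted as higher or lower. Where 3 values are listed for a gene, they are in the order control, low dose and high dose. As a measure of technical spread, probes printed on 10 spots gave an SD of the single-spot log2 difference between the low-dose and control arrays of 0.224 for dim probes (mean log2 below 6) and 0.12 for probes of 8 to 10. It is a spread of spots within arrays and does not cover variation among rats. Of all probes, 50.4% (control), 52.0% (low dose) and 54.7% (high dose) were above background. Precision is limited by there being 1 array for each group. The labelled tissue was checked by 7 proximal tubule transporters and receptors (Slc5a2, Slc34a1, Lrp2, Cubn, Slc22a6, Slc22a8 and Slc13a3), all of which were above background on every array.

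Collagens are trimeric proteins of the extracellular matrix, built from alpha chains that wind into a triple helix. Fibrillar types such as I and III form the load-bearing fibres of the interstitium between tubules and around vessels. Type IV forms the sheet-like network of basement membranes under tubules, glomerular capillaries and vessels, and the remaining types link, coat or anchor these structures. Excess interstitial collagen is a hallmark of kidney fibrosis.

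The comparison of the low dose with control showed higher collagen signal in many members. Of 23 members measured on both arrays, 19 stood above control and 4 below, and 9 (39.1%) were at least 2-fold higher while 0 were at least 2-fold lower. Over all 9767 named genes measured the same way, 2.49% were at least 2-fold higher, 0.676% at least 2-fold lower and 35.6% higher by any amount. The median log2 difference of the measured collagens was 0.87, beside -0.11 over all named genes. The 9 genes were Col1a1, Col1a2, Col3a1, Col5a1 and Col5a2 among the fibrillar chains, and Col15a1, Col16a1, Col18a1 and Col6a2 among the others. In the high-dose comparison, none of 24 measured members was 2-fold higher or lower than control, where the shares over all 9921 named genes were 0.847% and 0.151%. By any amount, 16 members stood above control and 8 below, while 43.6% of all named genes stood above. The median there was 0.15, with members between -0.58 and 0.69, beside -0.05 over all named genes. Both comparisons share the control array.

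Between the doses, 9 of 24 measured members (37.5%) stood 2-fold or more below their low-dose value on the high-dose array, and 0 stood 2-fold above it. Over all 10171 named genes the shares were 1.49% lower and 0.452% higher. The median log2 difference was -0.73, beside 0.04 over all named genes, and 3 of the 24 members stood higher at the high dose by any amount, where 55.1% of all named genes did. The 9 genes were Col1a1, Col1a2, Col3a1, Col5a1, Col5a2, Col4a1, Col15a1, Col16a1 and Col6a2. This comparison and the first share the low-dose array, so the lists of genes are not independent of each other. RNA of kidney tissue was measured, and more cells of a type cannot be told apart from more RNA per cell. Nor can either be told apart from a difference in the parts of the kidney that a pool holds.

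**Figure D1:**
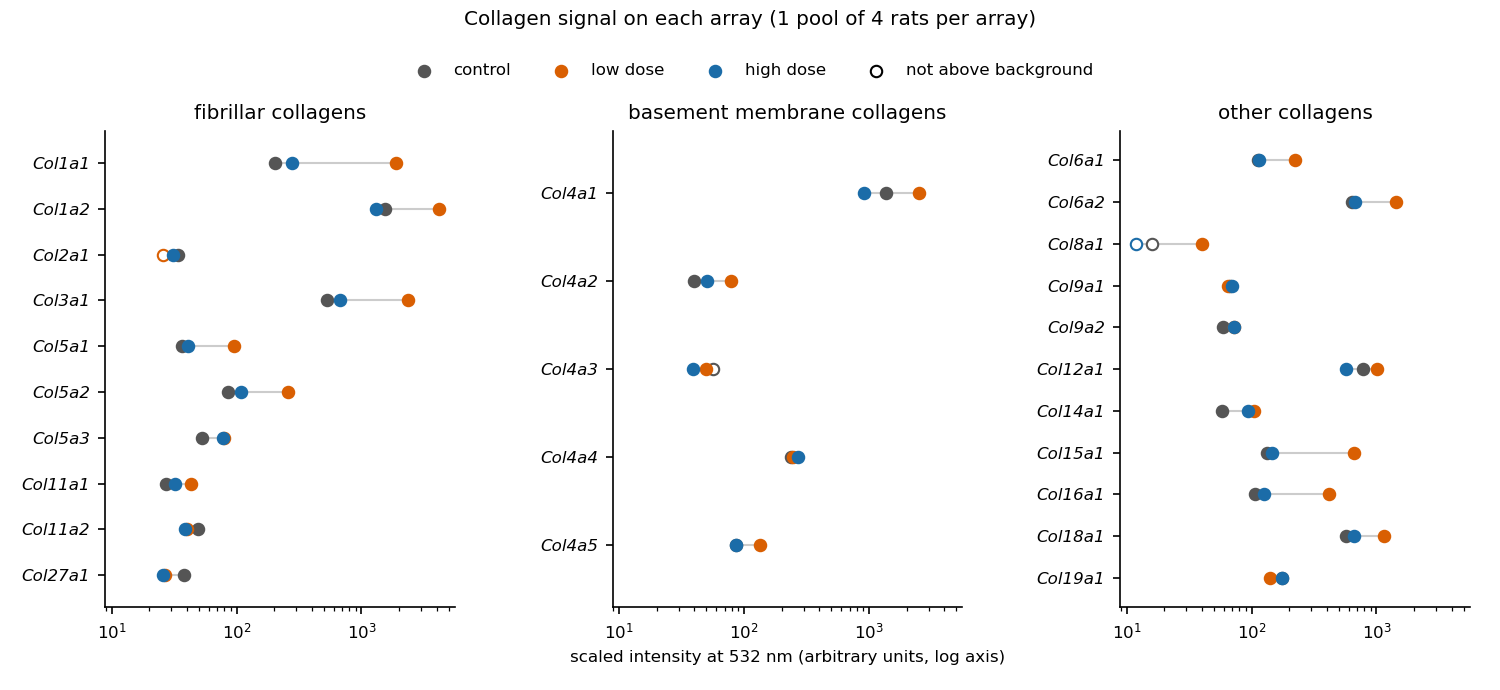
Scaled intensity (log axis) of each collagen above background on at least 1 array, in 3 panels for fibrillar, basement membrane and other chains, with 1 point per array and each array holding 1 pool of 4 rats. Col1a1 stands at 1876 for the low dose against 202 for control and 278 for the high dose, and open points mark arrays where a probe was not above background.

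The fibrillar chains held the largest single difference of the family, that of Col1a1 at the low dose. Among 9 measured at the low dose, 5 (55.6%) were at least 2-fold higher than control, beside 2.49% of all named genes. The class median was 1.38, the value of the dim Col5a1 probe, and 0.64 with a background correction that adds an offset (normexp). At the high dose the median over 10 measured chains was 0.19, and -0.05 with normexp.

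Type I collagen, the main fibre of scar and interstitium, is made of chains from Col1a1 and Col1a2. Col1a1 had a scaled intensity of 202 in control, 1876 at the low dose and 278 at the high dose. The low-dose array thus stood far above the other two, by a log2 difference from control of 3.21 (9.28-fold), while the high dose differed from control by 0.46. At the high dose Col1a1 was 6.74-fold lower than at the low dose. The other probe of Col1a1, which was dimmer, read 113, 512 and 168, so the low-dose difference was 2.18 and the high-dose difference 0.57. Both probes put the low-dose array highest, but the size of the difference depends on the probe. Col1a2 read 1554 in control, 4185 at the low dose and 1312 at the high dose. Its low-dose difference was 1.43 (2.69-fold) and its high-dose difference -0.24, and the high dose was 3.19-fold lower than the low dose. The chains of the type I trimer therefore differed in size of change, with Col1a1 above Col1a2 by 1.78 on the log2 scale at the low dose and by 0.71 at the high dose.

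The promoter of Col1a2 is shown because it was the only type I or type III chain with an entry in the promoter table used here. It covers 250 bases before and 50 after the annotated start in RefSeq (chr4:33518307-33518606, plus strand, build GRCr8, 57.0% G and C). Capitals mark matches, on either strand, to the CCAAT box, to the TATA sequence TATAAA or to the GC box GGGCGG:
Col1a2: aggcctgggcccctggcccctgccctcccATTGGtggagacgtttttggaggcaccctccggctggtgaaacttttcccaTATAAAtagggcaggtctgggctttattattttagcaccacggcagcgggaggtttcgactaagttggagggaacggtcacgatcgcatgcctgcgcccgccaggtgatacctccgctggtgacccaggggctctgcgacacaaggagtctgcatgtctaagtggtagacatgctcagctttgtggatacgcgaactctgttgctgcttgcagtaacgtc
The window held an inverted CCAAT match 221 bases before the annotated start and a TATAAA match 170 bases before it. The annotated start need not be the start used in kidney. Searched on both strands, CCAAT occurred in 37.5% of all 33469 promoter windows, TATAAA in 14.2% and GGGCGG in 33.1%. These shares are by window, while members were counted by gene, with a match in any window of the gene. Of the 38 members, 30 had a window, and among these CCAAT occurred in 8, TATAAA in 4 and GGGCGG in 18. Of the 9 genes at least 2-fold higher at the low dose, 6 had a window, of which CCAAT occurred in 1, TATAAA in 1 and GGGCGG in 3. Among 12 measured members with a window that were not 2-fold higher, CCAAT occurred in 4, TATAAA in 0 and GGGCGG in 7. The AP-1 sequence TGANTCA occurred in 7.33% of all windows, in 1 of the 30 and in 0 of the 6, and the SMAD sequence CAGAC in 50.1%, in 13 and in 3. These are matches of letters in a window, without evidence of binding.

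Col3a1 encodes the chain of type III collagen, which is laid down with type I in elastic tissue and early scar. Its log2 signal was 9.06 in control, 11.20 at the low dose (an intensity of 2358) and 9.38 at the high dose (669). The low-dose difference was 2.15 (4.43-fold) and the high-dose difference 0.33, so control and high dose lay close together and the low dose apart. The high dose was 3.53-fold lower than the low dose.

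Type V collagen nucleates type I fibrils and limits their width, and its common trimer combines Col5a1 and Col5a2. Col5a1 read 36.5, 95.1 and 41.0, a low-dose difference of 1.38 (2.60-fold) and a high-dose difference of 0.17. This is a dim probe, and with normexp the low-dose difference was 0.64. Col5a2 read 85.6, 259 and 109, with differences of 1.60 (3.03-fold) and 0.35. A further Col5a2 probe gave 1.18 and 0.00. Both chains of the trimer thus stood highest on the low-dose array, and they differed from each other by -0.22 at the low dose and -0.19 at the high dose (Col5a1 minus Col5a2). Col5a3, a further type V chain, went otherwise. It read 52.5, 79.7 and 78.4, with differences of 0.60 and 0.58, close to each other and under 2-fold.

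None of the minor fibrillar chains that were measured reached 2-fold. Col11a1 (a chain of type XI collagen, best known from cartilage) read 27.4, 43.2 and 31.9, with a low-dose difference of 0.66. Col11a2, its partner chain, read 49.1, 40.3 and 38.3, with differences of -0.28 at the low dose and -0.36 at the high dose. Col27a1 read 37.7, 26.9 and 25.5, with -0.49 and -0.56, and was the lowest of the measured members at the low dose. Col2a1, the cartilage collagen, was above background on the control array at 34.2 and the high-dose array at 31.0. On the low-dose array it was not, and its signal there (25.9) was 1.32-fold lower than on the control array. Col24a1 was above background on no array.

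**Figure D2:**
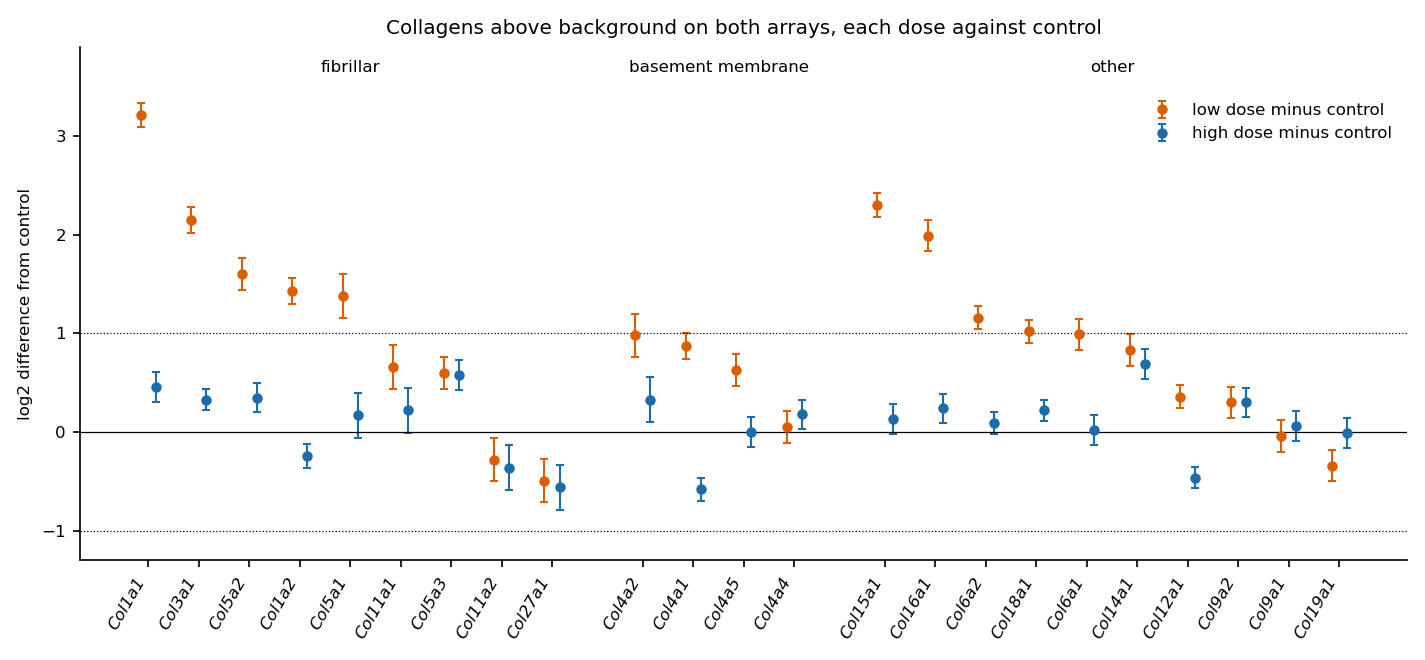
Log2 difference from control (vertical axis) at the low and the high dose for each collagen above background on both arrays, grouped by class, with bars of 1 SD of the single-spot difference at that brightness (technical spread only, no animals) and dotted lines at 2-fold. At the low dose 9 members lie past the upper line, and at the high dose all members lie between -0.58 and 0.69.

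Of the basement membrane chains, none of 4 measured at the low dose reached 2-fold, and the class median was 0.75 (0.40 with normexp), beside 0.09 at the high dose. Between the doses 1 of 5, Col4a1, passed 2-fold, with the lower value at the high dose. Over all named genes, 2.49% were at least 2-fold higher at the low dose and 1.49% at least 2-fold lower between the doses. Their medians were -0.11 at the low and -0.05 at the high dose.

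Col4a1 and Col4a2 form the ubiquitous type IV trimer. Col4a1 read 1369 in control, 2496 at the low dose and 917 at the high dose. The low dose stood above control by 0.87 (1.82-fold) and the high dose below it by 1.49-fold (log2 difference -0.58), so the high dose was 2.72-fold lower than the low dose. A further Col4a1 probe was dim, at 30.8 on the control and 26.9 on the low-dose array, and gave a low-dose difference of -0.20, while on the high-dose array it was not above background. The low-dose difference of Col4a1 thus rests on its bright probe. Col4a2 read 39.96, 78.8 and 50.2, a low-dose difference of 0.98 (1.97-fold) and a high-dose difference of 0.33. Col4a1 minus Col4a2 was -0.11 at the low dose and -0.91 at the high dose, but the first gap depends on the setting. With normexp Col4a1 stood at 0.88 and the dim Col4a2 probe at 0.42 at the low dose, and at -0.49 and 0.04 at the high dose, and averaging its probes put Col4a1 at 0.33 at the low dose.

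These genes lie head to head on chromosome 16 and are transcribed away from each other, so their promoter windows overlap by 176 bases. The windows are shown because the chains of this trimer share that stretch. Both are from RefSeq, build GRCr8, with Col4a1 at chr16:84885347-84885646 on the plus strand (75% G and C) and Col4a2 at chr16:84885471-84885770 on the minus strand (73.7%), against a median of 51.7% over all promoter windows. Capitals mark the same motifs as above, on either strand:
Col4a1: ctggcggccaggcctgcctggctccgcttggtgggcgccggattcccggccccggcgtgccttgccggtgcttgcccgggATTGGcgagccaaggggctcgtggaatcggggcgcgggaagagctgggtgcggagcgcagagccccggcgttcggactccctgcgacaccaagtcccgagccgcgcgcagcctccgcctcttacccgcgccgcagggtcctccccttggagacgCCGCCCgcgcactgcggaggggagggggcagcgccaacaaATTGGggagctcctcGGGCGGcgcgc
Col4a2: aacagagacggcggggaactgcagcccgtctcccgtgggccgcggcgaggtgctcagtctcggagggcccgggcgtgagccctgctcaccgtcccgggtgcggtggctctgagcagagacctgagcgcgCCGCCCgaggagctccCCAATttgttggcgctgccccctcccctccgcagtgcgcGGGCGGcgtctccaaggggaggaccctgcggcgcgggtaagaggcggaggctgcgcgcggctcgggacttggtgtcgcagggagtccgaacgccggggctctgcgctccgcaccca
The Col4a1 window held CCAAT matches 170 bases before and 24 after the annotated start, and GGGCGG matches 16 before and 39 after it. The Col4a2 window held a CCAAT match 105 bases before the start and GGGCGG matches 121 and 66 before. Neither held TATAAA.

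Col4a3, Col4a4 and Col4a5 form the trimer of the mature glomerular basement membrane, which is lost in Alport syndrome. Col4a4 read 239, 248 and 270, with differences of 0.05 and 0.18, close to the technical spread of 0.16 and 0.15 at this brightness. Col4a5 read 86.8, 134 and 86.7, so the low dose was higher by 0.63 and the high dose equal to control (0.00). Col4a3 was at 49.9 and 39.2 on the low-dose and high-dose arrays. On the control array it was not above background, with a signal-to-noise ratio of 2.94, and its spot there lay in a corner where signal was weak. Between the doses Col4a4 stood at 0.12, Col4a5 at -0.63 and Col4a3 at -0.35, so the latter pair was lower at the high dose and Col4a4 was not. Col4a6 was not analysed here.

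Among other collagens, 4 of 10 measured members were at least 2-fold higher at the low dose, beside 2.49% of all named genes. The class median was 0.91 (0.58 with normexp), and 0.11 at the high dose. Col15a1 and Col18a1, the multiplexins, are basement membrane proteoglycans, and Col18a1 gives rise to endostatin. Col15a1 read 134 in control, 658 at the low dose and 146 at the high dose. Its low-dose difference of 2.30 (4.93-fold) was the second largest of the family after Col1a1, and its high-dose difference was 0.13. The high dose was 4.51-fold lower than the low dose. Col18a1 read 572, 1159 and 664, with differences of 1.02 (2.03-fold) and 0.22. It stood just past the 2-fold line, and it passed that line in 11 of 13 alternative settings. Both multiplexins stood highest on the low-dose array, and Col15a1 minus Col18a1 was 1.28 at the low and -0.09 at the high dose.

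Type VI collagen makes beaded filaments near cells and basement membranes, from Col6a1, Col6a2 and an additional chain such as Col6a3. Col6a1 read 113, 225 and 115, with a low-dose difference of 0.99 (1.99-fold) and a high-dose difference of 0.02. Col6a2 read 635, 1421 and 674, with 1.16 (2.24-fold) and 0.09, and was 2.11-fold lower at the high dose than at the low dose. The chains differed from each other by -0.17 at the low dose and -0.06 at the high dose (Col6a1 minus Col6a2). Around the 2-fold line, Col18a1 (1.02) stood just inside and Col6a1 (0.99) and Col4a2 (0.98) just outside. Col6a3 was above background on no array, and neither was Col6a6.

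The collagens that decorate fibrils (FACIT) varied among themselves. Col16a1 read 106 in control, 421 at the low dose and 125 at the high dose. Its low-dose difference was 1.99 (3.96-fold), its high-dose difference 0.24, and the high dose was 3.37-fold lower than the low dose. The other 5 measured members of this class were under 2-fold. Col14a1, which binds type I fibrils, read 58.2, 104 and 93.9, with differences of 0.83 and 0.69, so it stood above control at both doses. Col12a1, a fibril surface collagen of load-bearing tissue, read 782, 1006 and 567, a difference of 0.36 at the low dose and -0.46 at the high dose. A second Col12a1 probe gave 0.22 and -0.27. Col19a1 read 177, 140 and 176, with -0.34 at the low dose and -0.01 at the high dose. Col9a1 and Col9a2, chains of type IX collagen, stood between -0.04 and 0.30 in either comparison. The subclass median was 0.33 at the low dose and 0.15 at the high dose.

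Col8a1, a network-forming chain of vessel walls, was above background on the low-dose array only, at 40.3. That was 2.52-fold above its signal on the control array and 3.40-fold above that on the high-dose array, neither of them above background. Apart from those named, the members above background on no array were Col7a1, Col8a2, Col9a3, Col10a1, Col13a1, Col17a1, Col20a1, Col22a1 and Col23a1. Their signals allow no statement on a difference. They include the anchoring fibril collagen of skin (Col7a1), the growth plate collagen (Col10a1) and the transmembrane collagens (Col13a1, Col17a1 and Col23a1).

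**Figure D3:**
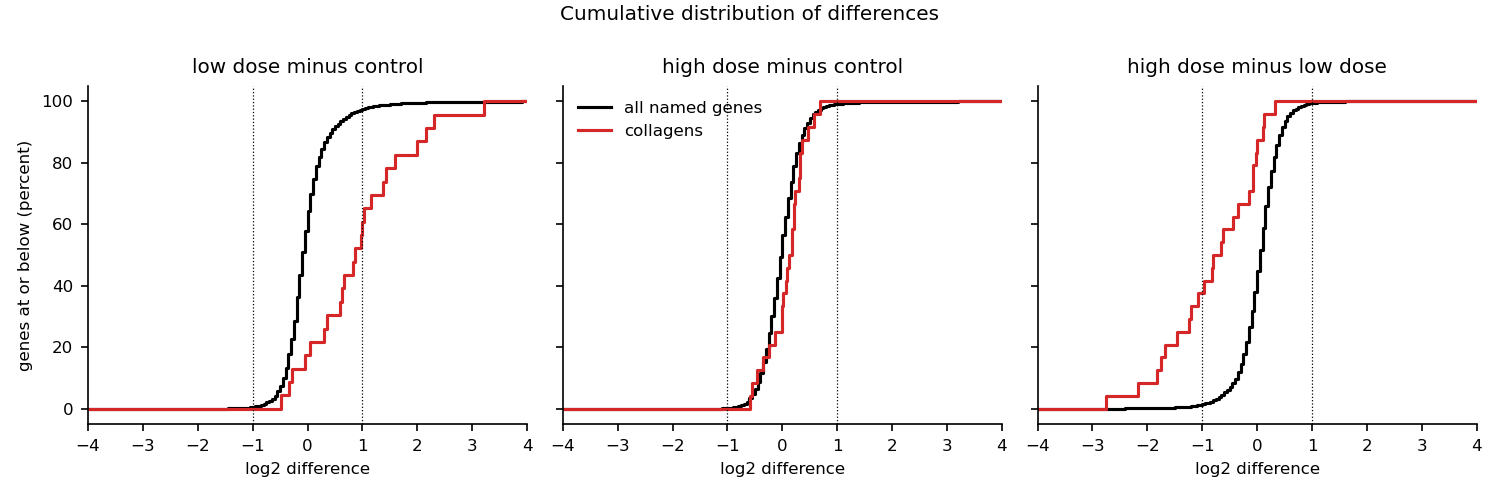
Cumulative percent of genes (vertical axis) at or below each log2 difference (horizontal axis) for all named genes and for the collagens above background on both arrays, in 3 comparisons, with dotted lines at 2-fold. The collagen curve lies to the right of all genes at the low dose (medians 0.87 and -0.11), near it at the high dose (0.15 and -0.05) and to its left between doses (-0.73 and 0.04).

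Collagen chains are hydroxylated, folded and assembled in the endoplasmic reticulum. Of 19 genes for these steps on the array, 15 were measured, with a median low-dose difference of 0.34 and a high-dose median of -0.03, beside -0.11 and -0.05 over all named genes. At the low dose 1 was at least 2-fold higher (6.67%, beside 2.49% of all named genes), Plod2, the lysyl hydroxylase for telopeptide crosslinks. Plod2 read 79.9, 316 and 115, with differences of 1.98 (3.95-fold) and 0.52. P3h3 (0.74), P3h4 (0.70) and Plod1 (0.53), also in this list, stood higher at the low dose by less than 2-fold. Serpinh1, the collagen chaperone HSP47, read 1349, 1841 and 1351, a low-dose difference of 0.45 and a high-dose difference of 0.00.

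Outside the cell, propeptides are removed and fibrils are crosslinked. Of 15 genes for these steps 9 were measured, and 4 (44.4%) were at least 2-fold higher at the low dose, with a median of 0.63, beside 2.49% and -0.11 over all named genes. At the high dose 0 passed and the median was -0.19, beside 0.847% and -0.05. Loxl2, a lysyl oxidase that crosslinks type IV collagen, read 69.6, 274 and 65.7, with differences of 1.97 (3.93-fold) and -0.08. Pxdn, a peroxidase that makes sulfilimine bonds in type IV collagen, read 252, 659 and 244, with 1.38 and -0.05. Loxl1, a lysyl oxidase of elastic fibres, read 77.6, 175 and 92.1 (1.17 and 0.25). Pcolce, which speeds the removal of the C-terminal propeptide, read 2016, 4079 and 1766 (1.02 and -0.19). These 4 genes stood highest on the low-dose array and within 1.19-fold of control on the high-dose array. Lox itself was above background on no array.

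Of 19 proteoglycans and glycoproteins that associate with fibrils, 12 were measured. At the low dose 6 were at least 2-fold higher, with a median of 0.99, beside 2.49% and -0.11 over all named genes. At the high dose 1 was, with a median of 0.41, beside 0.847% and -0.05. Eln, which encodes elastin, read 61.6, 286 and 120, with differences of 2.21 and 0.97. Fn1, the fibronectin on which fibrils assemble, read 636, 2603 and 732, with 2.03 and 0.20. Mfap5, a glycoprotein of microfibrils, read 28.5, 123 and 111, with 2.11 and 1.96, so it stood above control on both treated arrays. Sparc, a collagen-binding glycoprotein, read 2863, 6394 and 3622, with 1.16 and 0.34. The remaining genes past 2-fold at the low dose were Dcn (1.10) and Bgn (1.08), the small proteoglycans decorin and biglycan.

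Of 6 measured collagen receptors, 4 stood above control at the low dose by any amount, 0 by 2-fold or more, and 1 was at least 2-fold lower, with a median of 0.12. The lower gene was Itga11, the integrin chain that binds fibrillar collagen, at 110, 49.0 and 93.9 (low-dose difference -1.16). Mrc2, an endocytic collagen receptor, stood at 0.34, Ddr1 at -0.25 and Itgb1 at 0.21. Of 8 measured regulators 1 stood above control at the low dose and none passed 2-fold, with a median of -0.20. Over all named genes 35.6% stood above control at the low dose, with a median of -0.11. The 2-fold limit was passed upward by 2.49% of them and downward by 0.676%. Tgfb1, the main inducer of collagen genes, was above background on the low-dose array alone, at 24.0, which was 1.51-fold above its signal on the control array. Ccn2, the connective tissue growth factor, read 1186, 1066 and 502, a low-dose difference of -0.15 and a high-dose difference of -1.24 (2.36-fold lower). Of the 8 measured regulators Ccn2 alone passed 2-fold at the high dose, where 0.151% of all named genes passed that limit downward. Tgfb2 stood at -0.66, Tgfb3 at 0.40 and Skil at -0.30 at the low dose.

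Laminins, nidogens and heparan sulfate proteoglycans share the basement membrane with type IV collagen. Of 7 measured partners, 0 were 2-fold higher at the low dose, but all 7 stood above control, with a median of 0.42, where 35.6% of all named genes stood above with a median of -0.11. The leading ones were Nid1 (0.87), Lamc1 (0.61), Agrn (0.49) and Lamb1 (0.42). Lamb3, a chain of epithelial laminin, read 104 on the low-dose array. That was 5.34-fold above its control signal, which was not above background, and its high-dose signal was 30.1. Over the 8 partners measured at the high dose the median was 0.01.

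**Figure D4:**
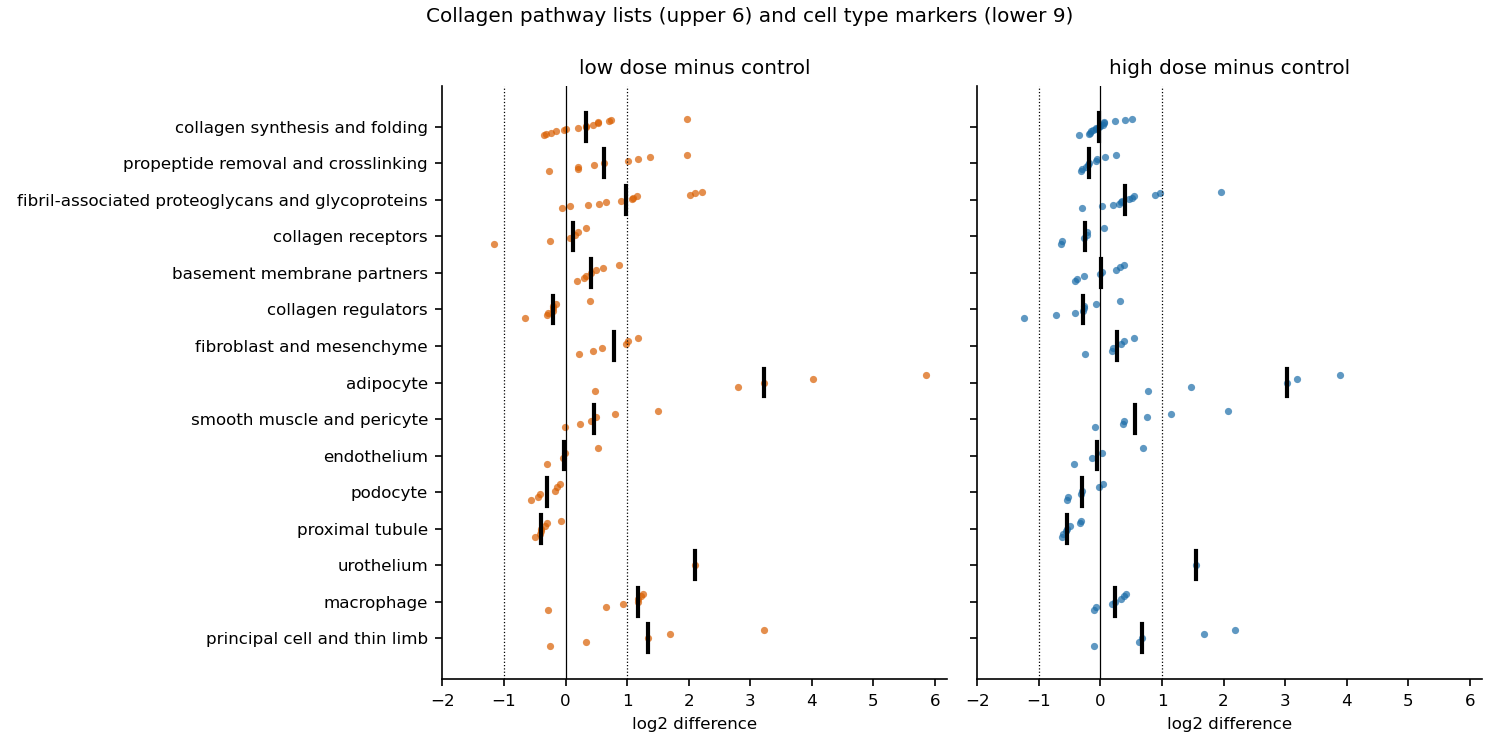
Log2 difference from control of each measured gene in 6 lists of collagen pathway genes and 9 lists of cell type markers, at the low dose (left) and the high dose (right), with a vertical bar at each list median and dotted lines at 2-fold. Crosslinking genes have medians of 0.63 and -0.19, macrophage markers 1.18 and 0.23, and adipocyte markers 3.22 and 3.03.

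Markers of the cell types that a kidney piece can hold were set beside these values. Over all named genes the medians were -0.11 at the low and -0.05 at the high dose, and 2.49% and 0.847% were at least 2-fold higher. Fibroblast and mesenchyme markers, from cells that make fibrillar collagen, stood at a median of 0.79 at the low dose and 0.27 at the high dose over 6 measured genes. Their summed scaled intensities were 988, 1693 and 1118, and 6, 7 and 7 of 9 were above background. Vim stood at 1.18, Pdgfra at 1.02 and Pi16 at 0.99 at the low dose, while Fap was above background on no array. Macrophage markers had medians of 1.18 and 0.23 over 7 measured genes, with sums of 2351, 5130 and 2413 and all 7 above background on every array. C1qc stood at 1.26, C1qa at 1.23 and C1qb at 1.18 at the low dose, while Csf1r stood at -0.28 there and at 0.38 at the high dose. Both lists had their highest sum on the low-dose array. So did the adipocyte, urothelium, principal cell and thin limb, and smooth muscle and pericyte lists below. The part of any of these lists in the collagen values was not tested.

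Other marker lists were high on both treated arrays. Adipocyte markers had medians of 3.22 at the low and 3.03 at the high dose over 5 measured genes, with sums of 813, 8734 and 4148, and 5, 8 and 8 of 10 above background. Ucp1 stood at 5.86 and 3.89, Fabp4 at 4.02 and 3.2, and Adipoq at 3.22 and 3.03. Cfd was 25.6-fold and 15.1-fold above its control signal, which was not above background. Retn was at least 16.8-fold and 19.1-fold higher. Cidec stood at 0.48 and 0.77. Lipe was 1.07-fold and 1.05-fold above its control signal, which was not above background. Plin1 and Lep were above background on no array. Of 6 urothelium markers 1 was above background on the control array and 4 on each treated array, with sums of 169, 1454 and 894. Upk1a stood at 2.10 and 1.55, and Upk1b was at least 29.0-fold and 13.1-fold higher. Upk2 was at least 10.2-fold and 7.72-fold higher. Upk3a was 19.6-fold and 12.1-fold above its control signal, which was not above background. Krt5 and Krt20 were above background on no array. Principal cell and thin limb markers had medians of 1.34 and 0.68, with sums of 12621, 31928 and 19676 and 5 of 5 above background on every array. In that list Akr1b1 stood at 3.23 and 2.19, Slc14a2 at 1.69 and 1.68, and Aqp2 at 1.34 and 0.62, while Scnn1b stood at -0.25 and -0.11. On the high-dose array these lists had sums above control. Of 24 measured collagens 16 stood above control there, 0 of them by 2-fold or more. The part of these lists in the collagen values at either dose was not tested.

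Smooth muscle and pericyte markers had medians of 0.46 and 0.56 over 6 measured genes, with sums of 1116, 1621 and 1545. At the low dose 1 was at least 2-fold higher and at the high dose 2, beside 2.49% and 0.847% of all named genes. The leading ones were Actg2, with log2 differences of 0.81 and 2.08, Tagln, which was 2.83-fold and 2.21-fold higher, and Acta2 (0.49 and 0.75). Des stood at 0.42 and 0.38, Mylk at 0.23 and -0.09, and Myh11 at -0.01 and 0.36. Endothelium markers had medians of -0.02 and -0.05 over 4 measured genes, of which 1 was above control at the low dose and 2 at the high dose. Emcn stood at 0.53 and 0.69, Pecam1 at -0.04 and -0.43, Vwf at -0.30 and 0.03, and Kdr at -0.01 and -0.13. Podocyte markers had medians of -0.30 and -0.31 over 6, with Nphs1 at -0.56 and -0.53. Proximal tubule markers had medians of -0.40 and -0.54 over 7, with sums of 103281, 81858 and 74907, and none of the 7 stood above control at either dose, where 35.6% of all named genes did at the low dose and 43.6% at the high dose.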

How the data were processed

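Kidney RNA pools of 3 groups were read on 1 array each. Groups came from the sample labels. Per the file headers, GenePix Pro 6.1.0.4 read the spots at 532 nm and a photomultiplier setting of 550, and the deposited intensity has a background of 39 or 40 subtracted. The deposited score columns are the signal-to-noise ratio and flag, and a percent column gives saturated pixels, of which member spots had 0, per the file headers. A table of log2 values was also deposited by the authors, equal in median (4.77) on all arrays and used as an alternative. How these were scaled and centred was not stated in any source used here. Agilent Feature Extraction is named in the submitters' processing notes, for whose signals the design had been written. GenePix's net mean and signal-to-noise ratio were used instead. A further high-dose array was not analysed here.

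Control spots, spots not found (6, 5 and 6) and non-uniform spots (pixel mean over 1.5-fold from pixel median: 166, 139 and 80) were left out, the last limit having been set after the data were seen. Of these spots 1 was a member's, of a Col11a1 probe that was therefore not used. With non-uniform spots kept, that probe stood for Col11a1, and 22 in place of 23 members were measured at the low dose. Intensities were multiplied by 1.14, 0.960 and 0.912, floored at 1 and log2-transformed. For a probe below the background limit on a single array of a pair, the fold was taken against that array's lowest signal past the limit. It is given as at least that fold. Where the probe's own signal was higher than that lowest signal, the own signal was used. Such a fold is a plain ratio of signals and not a lower bound. A list is described by counts and a median over genes above background on both arrays, beside the same over all named genes.

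A RefSeq table (GRCr8) named 18754 of 30367 probes by accession, 2572 by current symbol, and 409 by synonym, while 1690 kept the files' symbol and 6942 had none. Promoter windows came from RefSeq. Values were computed with Python 3.11.15, numpy 2.4.6 and pandas 2.3.3, and normexp with limma 3.58.1 in R 4.3.3. The scripts were tested on simulated data. Alternatives were 14 planned and 1 added.

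The members, classes and lists were chosen with earlier results of these data known. Every collagen above background on at least 1 array is accounted for, and those at least 2-fold apart in any comparison, with chains of types I, III, IV, VI, XV and XVIII, are given on every array. Pathway lists name up to 4 members by low-dose difference, plus Serpinh1, Lox, Sparc, Ccn2 and Tgfb1, and marker lists up to 3 by measured difference at either dose. Named outside this rule, after their values were seen, were Bgn, Dcn, Lamb3, Cfd, Retn, Cidec, Lipe, Upk1b, Upk2, Upk3a, Csf1r, Scnn1b, Pecam1, Kdr, Vwf, Des, Mylk and Myh11, and markers above background on no array.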

Additional observations from a re-analysis of the deposited data

Results flagged for a closer look

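Col1a2, Col4a1 and Col12a1 stood on opposite sides of control at the 2 doses by more than the technical spread between spots. Col1a2 differed from control by 1.43 at the low dose and by -0.24 at the high dose. For Col4a1 the values were 0.87 and -0.58, and for Col12a1 0.36 and -0.46. All 3 kept both signs in each of 13 alternative settings. None of these used the dim second Col4a1 probe alone, whose low-dose difference was -0.20. The share of all named genes on opposite sides of control in this way was not computed. The difference between the doses was not tested, since each dose has 1 array, and both values of a gene rest on the same control array.

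Outside the naming rule, probes that the RefSeq table or the array's description ties to collagens also gave signal. A probe for Col26a1, named LOC685612 in the annotation, read 33.6 on the low-dose array and was not above background on the control (18.3) or high-dose array (13.7), nor was a second probe of it on any array. LOC363458, described as collagen alpha-6(IV) chain-like, read 65.1, 94.1 and 56.6 (control, low and high dose), a low-dose difference of 0.53 and a high-dose difference of -0.20. Neither was tested.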

How the results depend on the processing

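No paired analysis was possible because the groups share fewer than 2 replicate numbers, and leaving out a replicate was not possible with 1 array per group. Of 210 alternative values of the collagen counts and class medians, 192 moved by less than the technical spread between spots or, for counts, by less than 1.5 times, 18 moved further, and 0 reversed a called value. The count of collagens at least 2-fold higher at the low dose ran from 7 (normexp) to 13 (genes not above background kept), and the count lower at the high than at the low dose from 7 to 10. The authors' log2 values gave 10 and 9. Centring within blocks of the array, an alternative chosen after seeing the data, gave 11 and 9.

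With normexp, the low-dose medians were 0.64 for fibrillar, 0.40 for basement membrane and 0.58 for other collagens, the high-dose fibrillar median -0.05, and the medians between doses -0.69 for fibrillar and -0.38 for basement membrane chains. With genes not above background kept, 1 collagen was lower at the low dose (Col9a3), and at the high dose 1 was higher (Col13a1) and 1 lower (Col9a3). The low-dose median of other collagens was then 0.33, and those between doses were -0.66 for fibrillar and -0.32 for other collagens. Means in place of medians gave 1.14 at the low dose and -1.03 between doses for fibrillar chains. Averaging a gene's probes gave a basement membrane median of 0.48 at the low dose. With Col15a1, Col18a1 and Col7a1 counted as basement membrane collagens, the low-dose medians were 0.92 for that class and 0.60 for the others, and the median of the others between doses was -0.48. Beyond the settings' own construction, the causes were not tested. Col5a1 passed 2-fold at the low dose in 12 of 13 settings, Col4a2 and Col6a1 in 4 of 13. Probes near background limit what can be said of the 12 collagens above background on no array and of Col2a1, Col4a3 and Col8a1, which were below the limit on 1 or 2 arrays.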

Other observations

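Several collagen genes neighbour each other in the RefSeq gene order (GRCr8), and their values are given side by side. On chromosome 9, Col3a1 and Col5a2 stood at 2.15 and 1.60 at the low dose and at 0.33 and 0.35 at the high dose. On chromosome 20, Col6a1 and Col6a2 stood at 0.99 and 1.16, and at 0.02 and 0.09. Col9a1 and Col19a1, also on chromosome 9, stood at -0.04 and -0.34 at the low dose and at 0.06 and -0.01 at the high dose. Col4a4 and Col4a3 on the same chromosome differed between the doses by 0.12 and -0.35.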
